A study of Mus musculus with 6 samples.

Results

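The epithelial keratins described here are 9 of the 57010 genes of the count table, taken by gene name. They are the basal keratins Krt5, Krt14 and Krt15, the simple keratins Krt7, Krt8, Krt18 and Krt19, and a remaining pair, Krt17 and Krt75. The 9 genes were picked with earlier results of these libraries known. Their own differences between mandible and femur are therefore described with no p-value, and where the fit over all genes called a member this is counted but not read as a finding.

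RNA was sequenced from femur-derived monocytes in libraries S13, S15 and S18 and from mandibular-derived monocytes in libraries S16, S19 and S23, 3 per site. All of them came from the bone marrow of mice of 1 year of age, of strain C57BL/6 by the labels (C57Bl/6J in the study's methods), and the labels name no allele and no agent in either group. The marrow was flushed from bones cleared of adherent tissue, and monocytes were enriched with a magnetic kit that holds back the other marrow cells, so the cells that the kit does not label can remain. Mice of both sexes were used, and the sources used here do not give the sex or the animal of each library, so the spread between libraries, and every p-value below, may be partly technical.

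Keratins are the intermediate filament proteins of epithelia. A filament is built from pairs of 1 acidic type I chain and 1 basic type II chain, so that cells express keratins in partner sets. Krt5 and Krt14 form the pair of the basal layer of stratified epithelia, and Krt15 is a further type I chain of that layer. Krt8 and Krt18 form the pair of simple epithelia, with Krt7 and Krt19 as their type II and type I companions in many ducts and linings. Krt17 is a type I keratin of hair follicles and of wounded skin, and Krt75 is a type II keratin of the hair follicle that is also made by the enamel epithelium of the tooth. Monocytes are blood cells and are not a usual source of these filaments. The incisor of the mouse mandible grows throughout life and carries enamel epithelium inside the bone.

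The type I members (Krt14, Krt15, Krt17, Krt18 and Krt19) and the type II members (Krt5, Krt75, Krt7 and Krt8) are similar in sequence, which bears on how reads can be told apart. A 60-base stretch of the coding sequence is shown to let the shared part be seen. It was chosen as the ungapped stretch in which Krt17 was most like Krt14. Likeness of the other type I members to Krt14 was used only to settle ties. Capitals mark the bases equal to Krt14, whose own stretch runs from base 1219 to 1278 of its coding sequence in GENCODE M21 (mouse GRCm38).
Krt14: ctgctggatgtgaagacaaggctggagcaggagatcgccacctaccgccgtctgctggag
Krt17: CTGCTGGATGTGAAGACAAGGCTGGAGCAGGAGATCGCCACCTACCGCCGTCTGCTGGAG
Krt15: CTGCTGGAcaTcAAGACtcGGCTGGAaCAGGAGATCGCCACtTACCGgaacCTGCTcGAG
Krt19: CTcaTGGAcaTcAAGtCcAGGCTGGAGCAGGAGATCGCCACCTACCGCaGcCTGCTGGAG
Krt18: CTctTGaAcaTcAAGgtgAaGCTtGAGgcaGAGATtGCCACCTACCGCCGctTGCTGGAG

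Krt17 matched Krt14 at all 60 bases of this stretch, Krt19 at 51, Krt15 at 48 and Krt18 at 43. Over the whole aligned coding sequence, Krt14 shared 81.6% of its bases with Krt17, 70.0% with Krt19, 69.8% with Krt15 and 57.2% with Krt18. The type II members are shown in the same way, in the stretch chosen because Krt75 was most like Krt5 there. Capitals mark the bases equal to Krt5, whose stretch runs from base 978 to 1037.
Krt5: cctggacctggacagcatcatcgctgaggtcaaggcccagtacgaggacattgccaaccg
Krt75: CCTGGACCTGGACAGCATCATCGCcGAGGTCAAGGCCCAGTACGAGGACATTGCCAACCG
Krt8: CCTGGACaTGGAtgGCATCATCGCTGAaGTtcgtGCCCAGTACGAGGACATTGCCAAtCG
Krt7: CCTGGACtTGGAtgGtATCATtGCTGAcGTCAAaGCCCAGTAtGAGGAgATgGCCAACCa

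Krt75 matched Krt5 at 59 of the 60 bases, Krt8 at 51 and Krt7 at 49. Over the coding sequence, Krt5 shared 75.1% of its bases with Krt75, 67.7% with Krt7 and 67.3% with Krt8. Counts of near-identical stretches are uncertain, because the sources used here do not say how the authors counted reads that map to several places. Of the 50-base windows along each member's longest coding transcript, 29.7% in Krt8, 14.4% in Krt14, 12.2% in Krt5, 3.99% in Krt17 and 2.49% in Krt75 occurred in the transcripts of another gene. The share was 0.720% in Krt18, 0.666% in Krt15 and 0.222% in Krt7, and no window of Krt19 was shared. For Krt14 the windows were shared with Krt16 (188 windows) and Krt17 (55 windows), and for Krt5 mainly with Krt6a (150 windows). These relatives had few counts. Krt16 had 14 counts, all in mandible library S19, Krt6a had 3 in femur library S15 and 32 in S19, and Krt6b had 19, all in mandible library S23. For Krt8 the windows were shared mainly with the pseudogene Krt8-ps (514 windows), which had 11, 5 and 0 counts in the femur and 0, 1 and 34 in the mandible.

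By GENCODE M21 (GRCm38), 4 of the type I members lie together on chromosome 11, all on the minus strand. They are Krt15 (chr11:100131758-100135928), Krt19 (chr11:100140810-100148665), Krt14 (chr11:100203162-100207548) and Krt17 (chr11:100256217-100261029). The type II members lie on chromosome 15, with Krt7 (chr15:101411043-101430313) on the plus strand and Krt75 (chr15:101563345-101573904), Krt5 (chr15:101707070-101712898) and Krt8 (chr15:101996698-102004482) on the minus strand. Krt18 (chr15:102028180-102032027, plus strand) is the type I member that sits beside the type II cluster, 23698 bases from the start of Krt8, its partner. The longest coding transcripts hold 9 exons in the type II members, 8 in Krt14, Krt15 and Krt17, 7 in Krt18 and 6 in Krt19. Genes on the opposite strand overlap Krt5 (Gm44323), Krt7 (Gm671), Krt8 (Gm36026) and Krt75 (Gm44460), and the sources used here do not say whether strand was used in counting. Gm671 had 14 and 3 counts in femur libraries S15 and S18, and Gm36026 had 17 in S15, with no count elsewhere.

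The libraries held 15718782 to 25371474 counts, and where a gene had no count up to 3 may have been missed, a limit of 0.133 to 0.172 counts per 1000000 after TMM scaling (CPM, used throughout). This limit and the count intervals below cover counting error only. Femur library S15 stood apart, with a count in 40494 genes (71.0% of the table), against 17481 to 23513 in the other 5 libraries. It had a count in 47 of the 54 keratin genes of the table, against 10 to 28 elsewhere. Where the femur counts of a member came from S15 alone, this is said beside its values. Mandible library S23 differed from the others in sex-linked genes, with 25189 counts of Xist against 0 to 12 and no count of Ddx3y against 840 to 1581. By these genes S23 had the pattern of female cells and the other 5 libraries that of male cells. Sex was by this measure uneven between the sites, and its part in the differences was not tested. All 13 monocyte markers examined had counts in every library, with a summed level of 7026 to 13258 CPM in the femur libraries and 6232 to 10654 CPM in the mandible libraries.

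The mandibular-derived monocytes contained reads of the basal pair Krt5 and Krt14 at about 40 CPM each, and the femur-derived monocytes contained almost none. The simple keratins Krt7, Krt8 and Krt18 had counts at a low level in every library. Krt19 had counts in femur library S15 and in mandible libraries S16 and S23 alone. The summed level of these simple keratins in CPM was nearly the same in both sites. Single members differed, with log2 fold changes from -0.80 (Krt7) to 3.46 (Krt19) and wide standard errors. In bulk RNA, fewer cells of a type and less RNA per cell cannot be told apart, which holds for every level given here.

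Krt5, the type II chain of the basal pair, had 0, 0 and 1 counts in femur libraries S13, S15 and S18. It had 724, 694 and 892 counts in mandible libraries S16, S19 and S23. All mandible libraries were high and the groups did not overlap. The level was 40.1 ± 9.63 CPM (SD, n = 3) in the mandible and 0.0147 ± 0.0255 CPM (SD, n = 3) in the femur. With 1 femur count in all, the ratio of the scaled counts, 2464 to 1, had a 95% counting interval from 442 to 97382, and without S15 it was 1608 (288 to 63534). The fitted log2 fold change was 10.82 ± 0.67 (SE), a value that depends on the prior count.

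Krt14, the type I chain of the basal pair, had 0, 27 and 0 counts in S13, S15 and S18. It had 789, 892 and 819 counts in S16, S19 and S23. The mandible libraries were again all high, and the femur counts came from S15, a library without a count of Krt5. The level was 42.9 ± 3.71 CPM (SD, n = 3) in the mandible and 0.415 ± 0.718 CPM (SD, n = 3) in the femur. The log2 fold change was 6.64 ± 1.04 (SE). The ratio of the scaled counts was 98.8 (95% counting interval 67.7 to 150). Without S15 no femur count remained. Krt14 was then at least 580-fold higher in the mandible against 3 counts over the group of S13 and S18, and the exact 95% counting interval began at 471.

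Krt15, the further basal chain, did not follow the pair. It had 0, 7 and 0 counts in the femur libraries and 2, 13 and 0 in the mandible libraries, and the groups overlapped. At 0.239 ± 0.331 CPM (SD, n = 3) in the mandible and 0.108 ± 0.186 CPM (SD, n = 3) in the femur, Krt15 did not pass the count filter, so no fold change was fitted. A difference was not detectable at this depth.

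**Figure D1:**
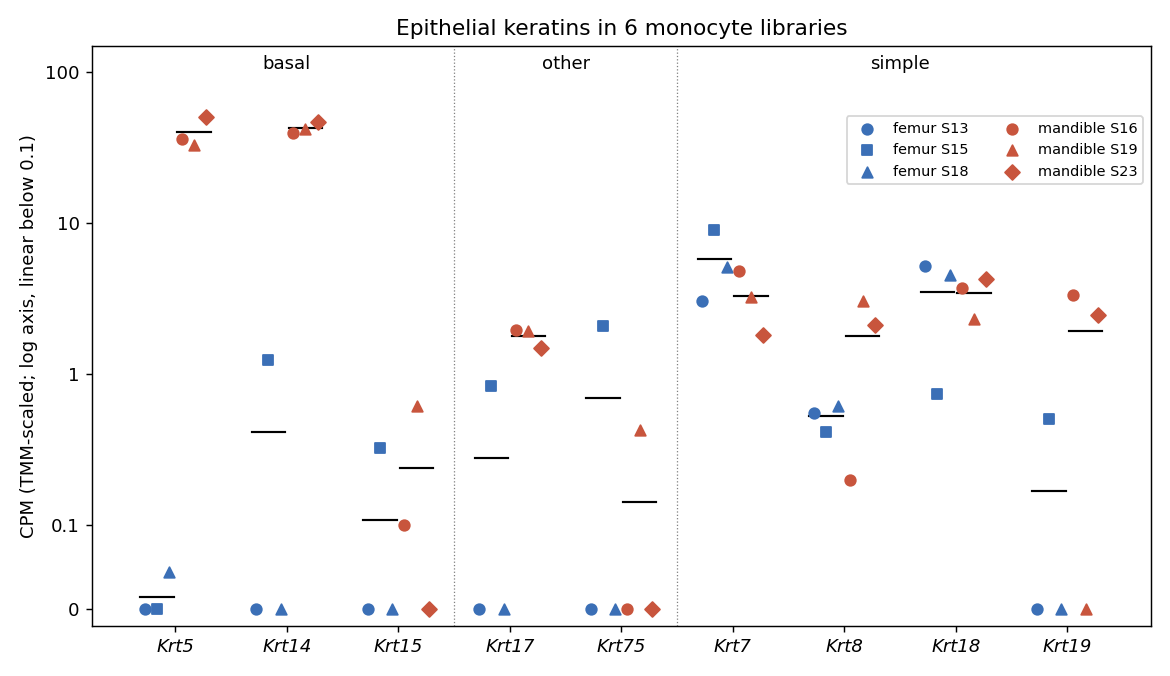
Level of each of the 9 epithelial keratins (x axis) in CPM, scaled by TMM, on a log axis that is linear below 0.1 (y axis), with a symbol for each of the 3 femur and 3 mandible libraries and a black bar for each group mean. Krt5 lies between 32.9 and 51.0 CPM and Krt14 between 39.5 and 46.8 CPM in the mandible libraries, while the symbols of the simple keratins Krt7, Krt8 and Krt18 of both groups lie among each other.

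Among the simple keratins, Krt18, the type I chain of the simple pair, had 94, 16 and 103 counts in S13, S15 and S18. It had 74, 49 and 75 in S16, S19 and S23. S15 was the lowest library and the groups overlapped, with 3.49 ± 2.41 CPM in femur and 3.44 ± 1.01 CPM in mandible libraries (SD, n = 3 each). The log2 fold change was -0.022 ± 0.85 (SE).

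Krt8, the type II partner of Krt18, had 10, 9 and 14 counts in the femur libraries. It had 4, 64 and 37 in the mandible libraries. S19 and S23 were above every femur library and S16 was below, so that the groups overlapped. The level was 0.529 ± 0.104 CPM in femur and 1.78 ± 1.45 CPM in mandible libraries (SD, n = 3 each), with a log2 fold change of 1.74 ± 1.41 (SE). In S23, where Krt8 had 37 counts, its pseudogene had 34, and with 29.7% of the windows of Krt8 shared the division between them is uncertain.

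Krt7, the type II keratin of ducts and simple linings, had 55, 197 and 117 counts in the femur libraries. It had 97, 68 and 32 in the mandible libraries. S15 was the highest and S23 the lowest library, and the groups overlapped, with 5.76 ± 3.06 CPM in femur and 3.30 ± 1.51 CPM in mandible libraries (SD, n = 3 each). The log2 fold change was -0.80 ± 0.70 (SE). It was -0.36 without S15.

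Krt19, the type I keratin of ducts that lacks the usual tail domain, had 0, 11 and 0 counts in the femur libraries. It had 67, 0 and 43 in the mandible libraries. Mandible library S19, which had the most Krt8, had none, so that the groups overlapped. The level was 0.169 ± 0.293 CPM in femur and 1.94 ± 1.74 CPM in mandible libraries (SD, n = 3 each), and the log2 fold change was 3.46 ± 2.18 (SE). All femur counts of Krt19 were those of S15.

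Krt17, the keratin closest in sequence to Krt14, had 0, 18 and 0 counts in the femur libraries and 39, 41 and 26 in the mandible libraries. All mandible libraries were above all femur libraries, at 1.80 ± 0.267 CPM against 0.276 ± 0.479 CPM (SD, n = 3 each), with a log2 fold change of 2.67 ± 1.85 (SE). The femur counts were again those of S15. The ratio of the scaled counts was 6.28 (95% counting interval 3.79 to 11), and without S15 no femur count remained. Krt17 was then at least 24.6-fold higher in the mandible against 3 counts over the group of S13 and S18, and the exact 95% counting interval began at 19.7. There were 20.2, 21.8 and 31.5 counts of Krt14 for each count of Krt17 in S16, S19 and S23, against 1.5 in S15. Krt75, the hair follicle and enamel keratin, had 45 counts in S15 and 9 in S19 and none in the other 4 libraries, and it did not pass the count filter.

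Thus 7 of the 9 members passed the count filter, 2 of them (Krt5 and Krt14) were called higher in the mandible and 0 were called lower. A gene was called where its adjusted p was under 0.05 and its difference at least 2-fold. Over the 18114 genes tested, 3.88% were called higher and 1.30% lower. In 3 of the 9 members (Krt5, Krt14 and Krt17) every mandible library was above every femur library, as it was in 12.7% of all genes tested. These values chose the members, and nothing is read from them.

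Levels were compared between members per kilobase of gene length. In the mandible the order began with Krt14 at 24.4 ± 2.11 CPM per kilobase, followed by Krt5 at 18.2 ± 4.38 CPM per kilobase (SD, n = 3 each). Krt14 was above Krt5 in each of the 3 libraries, although the highest library of Krt5 (23.2) was above the lowest library of Krt14 (22.5). Krt18 came next at 2.39 ± 0.701 CPM per kilobase, below Krt5 in every mandible library. Krt17 (1.16 ± 0.172), Krt19 (1.04 ± 0.936), Krt8 (0.912 ± 0.739) and Krt7 (0.469 ± 0.215) followed, and their ranges overlapped one another except those of Krt17 and Krt7. Krt15 (0.135 ± 0.187) and Krt75 (0.0436 ± 0.0755) ended the order.

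In the femur, Krt18 led with 2.43 ± 1.68 CPM per kilobase, followed by Krt7 at 0.817 ± 0.434 (SD, n = 3 each), and their ranges overlapped through S15. Krt8 followed at 0.270 ± 0.0531 CPM per kilobase, below the lowest library of Krt7. The remaining members lay between 0.00670 (Krt5) and 0.236 (Krt14) CPM per kilobase on average and, apart from the single count of Krt5 in S18, had counts in S15 alone. Krt7 is placed by the gene length of the count table, 7049 bases, whereas its longest coding transcript is 4094 bases long.

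The makeup of the keratin reads differed in the same way. Of the summed reads per kilobase of the 9 members, the basal keratins made up 85.8, 88.7 and 88.3% in S16, S19 and S23, or 87.6 ± 1.55% (SD, n = 3). They made up 0, 20.5 and 0.475% in S13, S15 and S18. The simple keratins made up 100% of S13 and 99.5% of S18, of which Krt18 alone was 83.5 and 74.8%, and 52.6% of S15. In the mandible their share was 9.85 ± 1.62% (SD, n = 3). Krt17 and Krt75 together made up 1.70 to 3.12% in the mandible and 26.9% in S15, where Krt18 was 11.8%. S15 thus differed in makeup from both the other femur libraries and the mandible libraries.

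**Figure D2:**
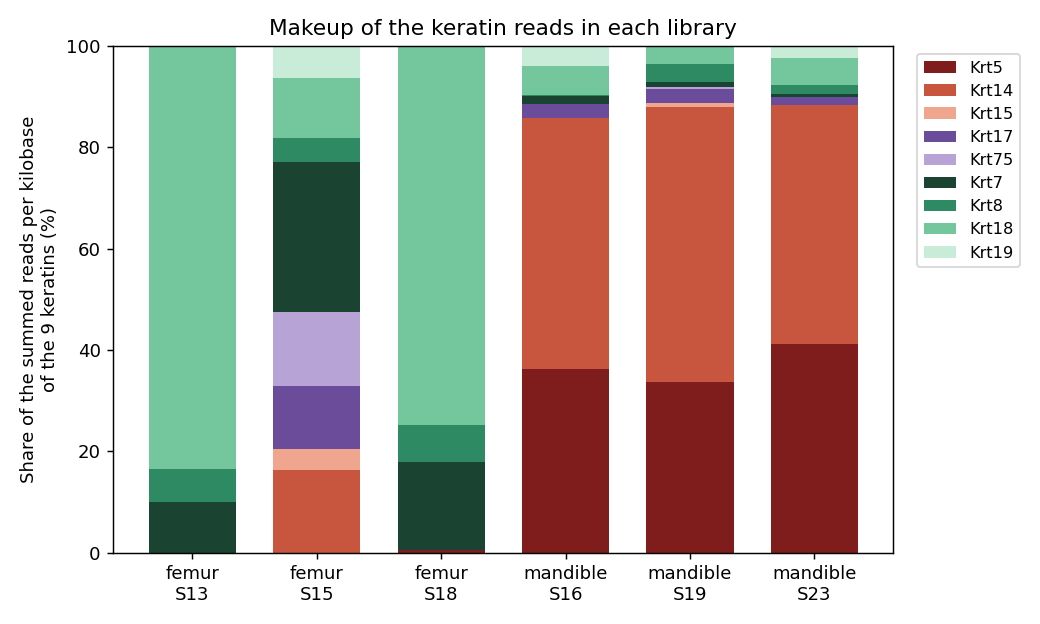
Share of the summed reads per kilobase of the 9 keratins, in percent (y axis), taken by each keratin in each of the 6 libraries (x axis, 1 stacked bar per library). Krt5 and Krt14 fill 37.0 ± 3.75% and 50.3 ± 3.58% of the mandible bars (SD, n = 3), Krt18 and Krt7 fill most of S13 and S18, and S15 is a mixture.

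In absolute level, the basal sum parted the sites and the simple sum did not. The basal sum was 0, 1.57 and 0.0442 CPM in S13, S15 and S18 and 75.8, 75.9 and 97.9 CPM in S16, S19 and S23. The simple sum was 8.78, 10.7 and 10.3 CPM in the femur libraries and 12.1, 8.59 and 10.7 CPM in the mandible libraries. In S15 most of it was Krt7, at 9.08 CPM. Per kilobase the simple sum was less level, at 4.33, 2.29 and 4.22 in the femur libraries and 5.17, 3.63 and 5.65 in the mandible libraries, and the groups overlapped. On the log2(CPM + 0.5) scale the mean of the mandible libraries exceeded that of the femur libraries by 6.65 for the basal sum and by 0.061 for the simple sum. Without S15 the differences were 7.32 and 0.12. The sum of all 9 members was 8.78 to 15.2 CPM in femur and 86.9 to 110 CPM in mandible libraries.

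Within the mandible, the ratio of the chains of the basal pair was taken in each library. Whether it varied less than the ratios of other genes was not tested. Per kilobase there were 0.734, 0.623 and 0.872 reads of Krt5 for each read of Krt14 in S16, S19 and S23, or 0.743 ± 0.12 (SD, n = 3). The type II to type I ratio over all members was 0.614, 0.627 and 0.770, or 0.670 ± 0.0863 (SD, n = 3). In the femur it was 0.197 and 0.338 in S13 and S18 and 0.965 in S15. For the simple pair there were 0.0397, 0.959 and 0.362 reads of Krt8 for each read of Krt18 in the mandible and 0.0781, 0.413 and 0.0998 in the femur. These ratios rest on 4, 64 and 37 counts of Krt8 in the mandible and 10, 9 and 14 in the femur. The ratio of the basal pair rests on 724, 694 and 892 counts of Krt5, and 29.7% of the Krt8 windows are shared. The spreads of the ratios are therefore not compared between the pairs. The basal to simple ratio per kilobase was 7.54, 10.9 and 8.82 in the mandible.

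The 250 bases before the RefSeq start (GRCm38.p6) are shown for Krt5 and Krt18 to let their starts be compared. Among the members alone, and by mean level per kilobase, Krt5 was the leading type II chain of the mandible and Krt18 led in the femur. Capitals mark a match to the TATA-like letters TATAAA or ATAAAA, searched on both strands, which overlap each other in 5 letters where they occur together.
Krt5, chr15:101712906-101713155, minus strand: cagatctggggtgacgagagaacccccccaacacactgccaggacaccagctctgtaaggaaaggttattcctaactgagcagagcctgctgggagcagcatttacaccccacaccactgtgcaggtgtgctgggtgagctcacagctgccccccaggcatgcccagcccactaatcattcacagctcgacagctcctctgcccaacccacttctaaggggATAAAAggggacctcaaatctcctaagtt
Krt18, chr15:102027966-102028215, plus strand: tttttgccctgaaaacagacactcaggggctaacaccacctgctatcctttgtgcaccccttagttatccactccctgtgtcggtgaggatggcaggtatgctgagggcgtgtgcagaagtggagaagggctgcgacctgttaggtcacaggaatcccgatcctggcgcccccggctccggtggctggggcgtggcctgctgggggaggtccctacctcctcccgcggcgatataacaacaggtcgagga

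ATAAAA stood 29 bases before the start of Krt5, and the window of Krt18 held neither set of letters. Of 32851 mouse windows of the same length, 17.0% held ATAAAA, 12.4% held TATAAA and 22.8% held either. RefSeq windows were found for 6 of the 9 members.

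The other 45 keratin genes of the table did not show the pattern of the basal pair. Only 6 of them passed the count filter, and 0 were called in either direction by edgeR's quasi-likelihood test, with 0 at an unadjusted p under 0.05 and 0 called by DESeq2. Their median log2 fold change was 0.24, against -0.038 over all genes tested. Krt80, a type II keratin of many epithelia, made up most of their reads, with 600, 1098 and 1051 counts in the femur libraries and 1419, 1422 and 711 in the mandible libraries. The groups of Krt80 overlapped, and its log2 fold change was 0.46 ± 0.30 (SE). Krt83, a hair keratin, had 86, 45 and 3 counts in the femur libraries and 1, 50 and 64 in the mandible libraries, also overlapping.

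Krt4, the type II keratin of the layers above the basal layer in the oral and oesophageal lining, had 0, 27 and 0 counts in the femur libraries and 59, 16 and 96 in the mandible libraries. Its log2 fold change was 2.86 ± 1.75 (SE) with an adjusted p of 0.50 (edgeR's quasi-likelihood test, adjusted by Benjamini-Hochberg). Without S15 no femur count of Krt4 remained, and it was then the 1 other keratin called, with an adjusted p of 0.043 by the same test. A further 19 keratins had counts in S15 alone, from 4 to 45 counts with a median of 12. Of all genes, 13454 had counts in S15 alone, with a median of 5 and at most 127, against 77 to 417 such genes for each other library. The 27, 45, 18 and 11 counts of Krt14, Krt75, Krt17 and Krt19 in S15 lie within that range, and the part of S15 in the femur values of these members was not tested.

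**Figure D3:**
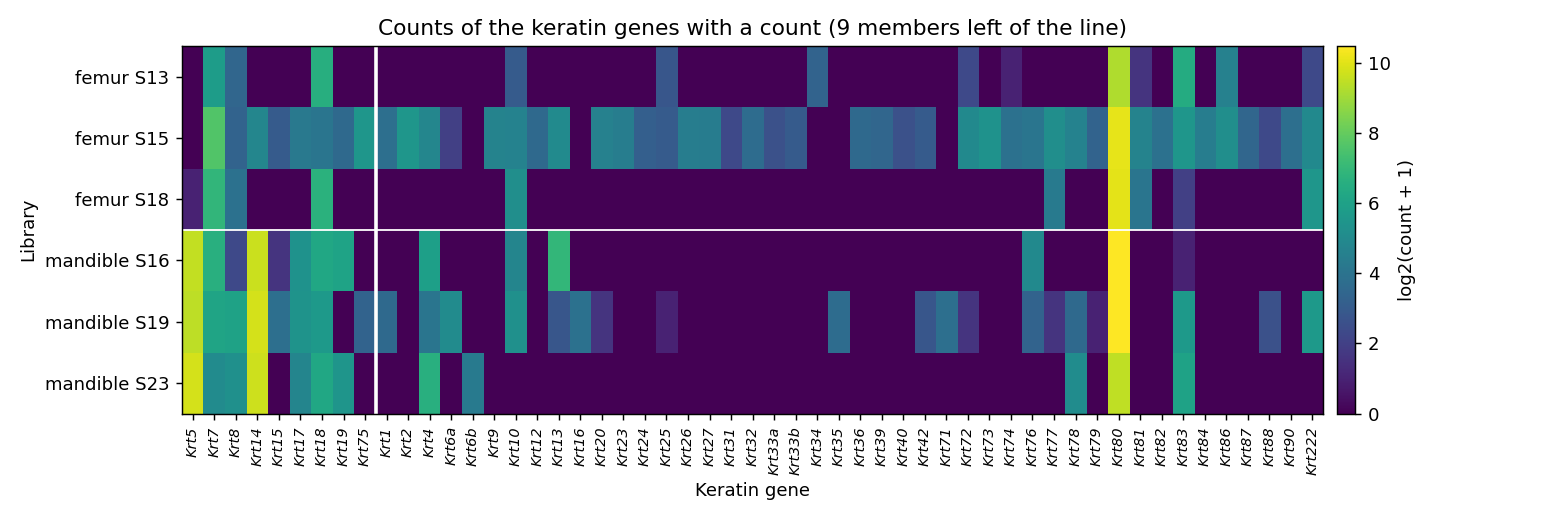
Counts, as log2(count + 1) (colour, from dark at 0 to bright yellow at the highest), of the keratin genes that had any count (x axis, the 9 members left of the white line) in the 6 libraries (y axis). Krt5 and Krt14 are bright in the 3 mandible rows, Krt80 is bright in every row, and the row of S15 holds a low count in 47 of the 54 keratin genes.

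Keratin filaments of basal cells are anchored to the matrix through hemidesmosomes and to neighbouring cells through desmosomes. The list of these genes and the lists below were, like the members, chosen with earlier results of these data known. Their calls and p-values therefore describe these libraries and are no independent support. Genes with few femur counts, such as Col17a1, Itgb4 and Trp63 below, passed the filter only with the help of the mandible libraries. A lower call was hardly possible for such genes. Of the 9 hemidesmosome and basement membrane genes examined, all passed the filter, 5 were called higher in the mandible and 0 lower. Over all 18114 genes tested, 3.88% were called higher and 1.30% lower. The median log2 fold change of the 9 genes was 4.35. The called genes included Lama3 and Lamb3, laminin chains that basal cells lay down, Col17a1, the collagen of the hemidesmosome, and Dst, whose epithelial form links keratin filaments to it. Lamb3 had 56, 83 and 46 counts in the femur libraries and 2010, 1839 and 2615 in the mandible libraries, with a log2 fold change of 5.24 ± 0.37 (SE). Col17a1 had 0, 55 and 17 counts in the femur libraries and 702, 621 and 966 in the mandible libraries, with a log2 fold change of 5.16 ± 0.91 (SE), or 6.58 without S15, and an adjusted p of 0.0068 over all libraries (edgeR's quasi-likelihood test, adjusted by Benjamini-Hochberg). In both, every mandible library was above every femur library. Lama3 and Dst had log2 fold changes of 6.92 ± 0.67 and 4.35 ± 0.54 (SE). Dst also has forms in nerve and muscle, and counts per gene do not tell them from the epithelial form.

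Itgb4, the integrin chain that binds keratin filaments through plectin, had 0, 79 and 5 counts in the femur libraries and 363, 427 and 609 in the mandible libraries. Its log2 fold change was 4.23 ± 1.12 (SE), and the adjusted p was 0.056 (edgeR's quasi-likelihood test, adjusted by Benjamini-Hochberg). Without S15 it was 7.56 with an adjusted p of 0.00047, and 7 of the 9 genes were called, Itgb4 and Plec among them. With any other single library left out, the adjusted p of Itgb4 was 0.069 to 0.18 by the same test. In each of those fits 5 of the 9 genes were called. Plec (plectin) and Itga6, which marrow blood cells also express, had log2 fold changes of 0.96 ± 0.35 and -0.98 ± 0.30 (SE) over all libraries and were not called.

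Col17a1 and Itgb4 were also counted against Krt5 in the mandible libraries. Whether these ratios varied less than those of other genes was not tested. There were 0.970, 0.895 and 1.08 counts of Col17a1 for each count of Krt5 in S16, S19 and S23, or 0.982 ± 0.0947 (SD, n = 3). For Itgb4 there were 0.501, 0.615 and 0.683 counts.

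Of the 15 desmosome genes, 8 passed the filter and 0 were called by edgeR's quasi-likelihood test, with 4 at an unadjusted p under 0.05 and 3 called by DESeq2. The median log2 fold change was 1.30, and all 8 values were above 0. Perp, a desmosome protein of stratified epithelia, had 52, 20 and 152 counts in the femur libraries and 205, 396 and 613 in the mandible libraries, with a log2 fold change of 2.60 ± 0.70 (SE). The groups of Perp did not overlap, but the adjusted p was 0.057 (edgeR's quasi-likelihood test, adjusted by Benjamini-Hochberg). Dsp (desmoplakin), which ties keratin filaments to the desmosome, had 135, 133 and 154 counts in the femur libraries and 297, 206 and 279 in the mandible libraries and was not called, with a log2 fold change of 0.99 ± 0.42 (SE). Jup (plakoglobin) had a value of 0.83 ± 0.48.

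Of the 22 cornified envelope genes, which mark the upper layers of stratified epithelia, 7 passed the filter. By edgeR's quasi-likelihood test 0 were called, with 1 at an unadjusted p under 0.05 and 1 called by DESeq2. The median log2 fold change of these 7 was -0.10. Evpl (envoplakin) had 32, 114 and 156 counts in the femur libraries and 492, 393 and 208 in the mandible libraries. Tgm1 had counts of 91 to 109 in the femur libraries and 126, 96 and 0 in the mandible libraries, and Ppl (periplakin) had 8, 94 and 0 against 247, 105 and 51.

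Of the 18 transcription factors of epithelia, 7 passed the filter. By edgeR's quasi-likelihood test 0 were called, with 2 at an unadjusted p under 0.05 and 2 called by DESeq2. Trp63, the transcription factor of basal epithelial cells, had 0, 42 and 7 counts in the femur libraries and 145, 209 and 277 in the mandible libraries. Its groups did not overlap. The log2 fold change was 3.86 ± 1.12 (SE) with an adjusted p of 0.081 (edgeR's quasi-likelihood test, adjusted by Benjamini-Hochberg), and without S15 it was 5.98 with an adjusted p of 0.0074. With any other single library left out, the adjusted p of Trp63 was 0.10 to 0.26 by the same test. There were 0.200, 0.301 and 0.311 counts of Trp63 for each count of Krt5 in S16, S19 and S23. Klf5 had a log2 fold change of 0.091 ± 0.52 (SE).

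Of the 23 junction and surface genes of epithelia, 14 passed the filter and 1 was called higher, Cdh3, the cadherin of basal epithelial cells, with 0 called lower. The share over all genes tested was 3.88% called higher and 1.30% called lower. Cdh3 had 0, 8 and 0 counts in the femur libraries and 73, 202 and 504 in the mandible libraries, with a log2 fold change of 6.73 ± 1.28 (SE) and an adjusted p of 0.010 (edgeR's quasi-likelihood test, adjusted by Benjamini-Hochberg). All femur counts of Cdh3 were those of S15, so that it passed the filter through the mandible libraries. Without S23, the highest library, the adjusted p was 0.092. Of the general epithelial markers, Cdh1 and Epcam did not part the groups. Cdh1 had 177, 98 and 182 counts in the femur libraries and 179, 268 and 234 in the mandible libraries, and Epcam had 19, 27 and 80 against 9, 40 and 32. Esrp1, a splicing factor of epithelia, had 0, 10 and 0 counts in the femur libraries and 24, 77 and 100 in the mandible libraries and was not called. Cldn4 had counts in S15 and S19 alone, as did Grhl2, and Cldn7 had no count in the mandible. Cdh1 is also expressed by blood cells of the marrow, and St14, Lsr and Spint2, the most abundant genes of this list, had log2 fold changes of 0.85 ± 0.39, 1.17 ± 0.58 and -0.35 ± 0.48 (SE).

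**Figure D4:**
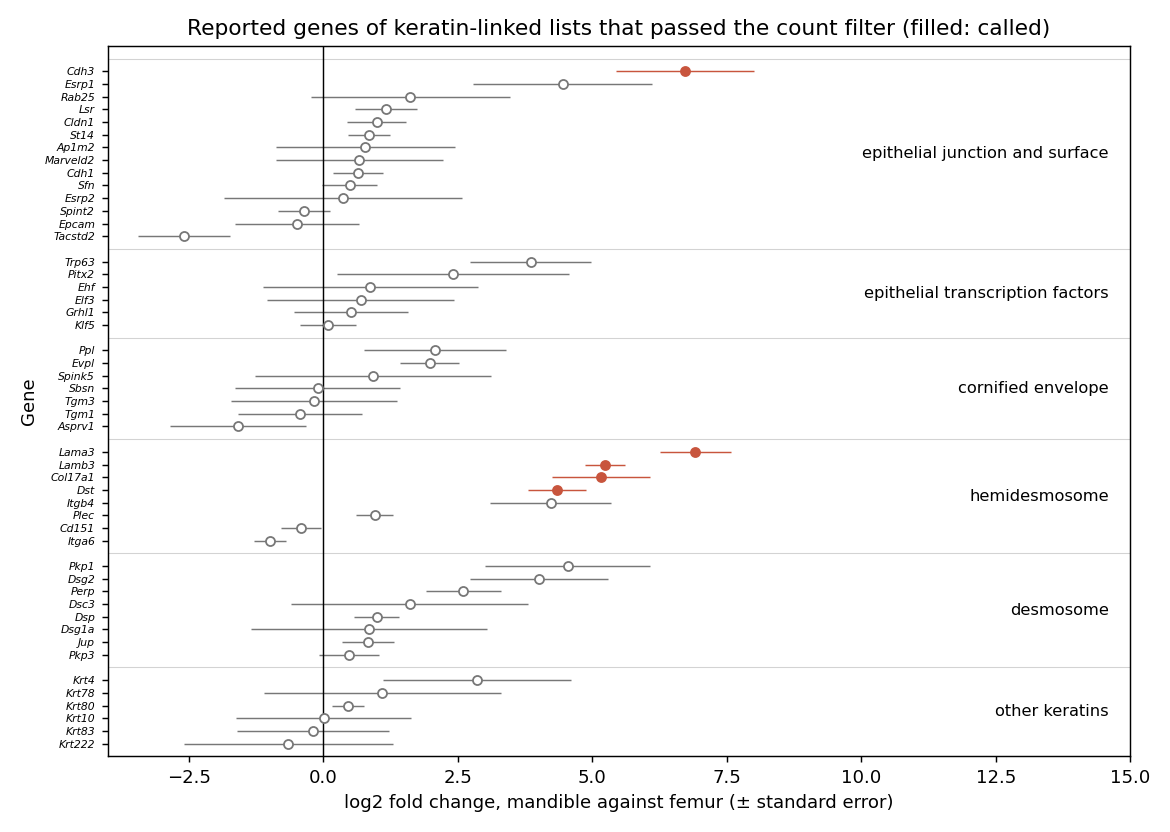
Log2 fold change of mandible against femur with its standard error (x axis) for genes of the keratin-linked lists that passed the count filter and are reported here (y axis, grouped by list). Filled points mark called genes, among them Lama3, Lamb3, Col17a1 and Dst in the hemidesmosome list and Cdh3 in the junction and surface list.

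Markers of cells other than monocytes were set beside the basal sum. These marker lists were also chosen with earlier results of these data known. Of the 11 dental epithelium markers in the table, all passed the filter, and 7 were called higher and 0 lower, where 3.88% of all genes tested were called higher. Their summed level was 1.06 to 7.69 CPM in femur and 5801 to 11417 CPM in mandible libraries, and 10 or 11 of the 11 had a count in each mandible library. With femur levels this low, markers of this list passed the filter mainly through the mandible libraries, so a lower call was hardly possible. Amelx, which encodes amelogenin, the main enamel matrix protein, had 60735, 76857 and 113109 counts in S16, S19 and S23 against 2, 5 and 7 in the femur libraries, or 83.9, 111 and 127 counts for each count of Krt5. Mmp20, the enamel protease, had 1201, 1445 and 2141 counts in the mandible libraries against 0, 19 and 0. The simple sum did not move with these markers.

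All 12 mesenchymal markers were called higher, with a summed level of 141 to 210 CPM in femur and 9461 to 16121 CPM in mandible libraries. Of the 14 salivary gland markers, 2 passed the filter and 0 were called by edgeR's quasi-likelihood test, with 0 at an unadjusted p under 0.05, and the summed level was 1.94 to 7.74 CPM in femur and 2.46 to 10.3 CPM in mandible libraries. The markers Smr3a, Dcpp1, Dcpp2 and Dcpp3 had no count in any library. None of the 5 mesothelial markers passed the filter, and their sum was at most 2.95 CPM, in S15. Of the 7 megakaryocyte markers 6 were called lower in the mandible, and of the 10 endothelial markers 8 passed the filter, of which 1 (Esam) was called lower. Of the 13 monocyte markers, 1 (Nr4a1) was called higher. For each of these lists the share over all genes tested was 3.88% called higher and 1.30% called lower. The part of these other cell types in the keratin values was not tested.

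**Figure D5:**
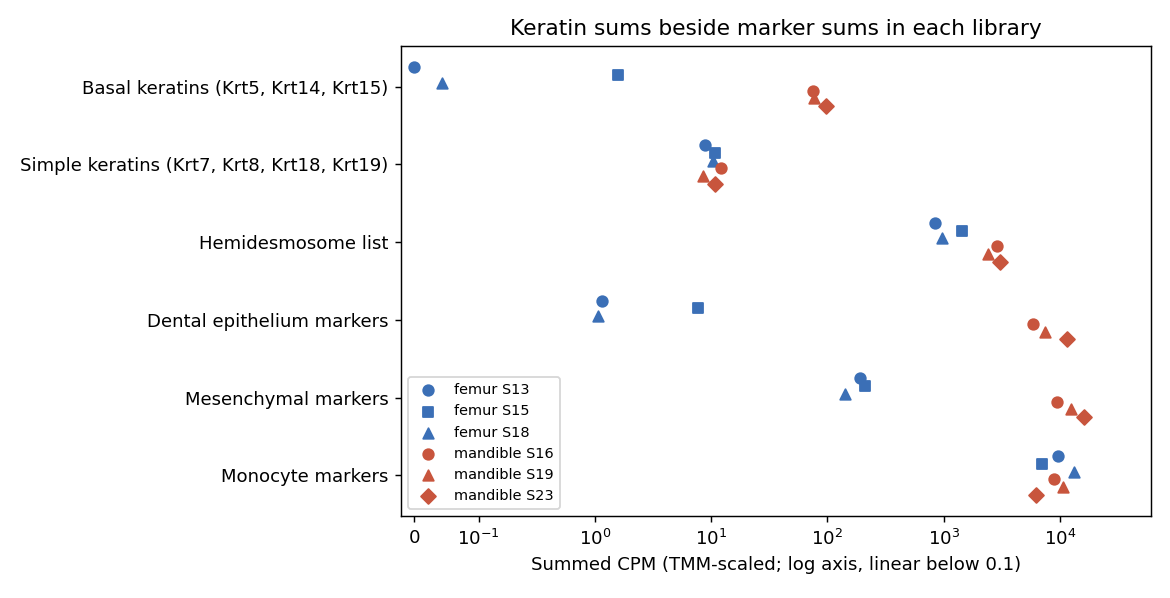
Summed CPM (x axis, log axis that is linear below 0.1) of the basal keratins, the simple keratins, the hemidesmosome list and 3 marker lists (y axis), with a symbol for each of the 6 libraries. The basal keratins and the dental epithelium and mesenchymal markers are apart between the sites, while the simple keratins, at 8.59 to 12.1 CPM, and the monocyte markers lie together.

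The genes outside the members whose profile over the 6 libraries was closest to that of the basal sum were found among 16242 genes with a mean of at least 1 CPM. The measure was the root mean square difference of log2(CPM + 0.5) after centring each profile. The closest were Thbs4 (0.186), Ctnna2 (0.278), Mmp20 (0.280), Ptn (0.295) and Col11a1 (0.474). Thbs4, Ctnna2, Mmp20 and Ptn had femur means of 0.292 to 0.584 CPM, and the femur counts of Mmp20 were those of S15. Closeness to the basal sum in the femur thus rests on low counts. Thbs4 was at 69.1 ± 8.51 CPM in mandible and 0.584 ± 1.01 CPM in femur libraries (SD, n = 3 each), beside 83.2 ± 12.7 and 0.537 ± 0.892 CPM for the basal sum. The genes closest to the simple sum were Wbp1 (0.0583), Entrep3 (0.0587), Atf4 (0.0643), Dhcr7 (0.0649) and Gmppb (0.0687). Wbp1 was at 11.7 ± 1.94 CPM in mandible and 11.6 ± 1.84 CPM in femur libraries (SD, n = 3 each). Since the simple sum was nearly level across the libraries, many genes lie close to it.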

How the data were processed

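Bulk RNA was sequenced from 3 femur and 3 mandible libraries. The authors trimmed paired-end reads, mapped them with HISAT2 2.1.0 (version per the submitters' processing notes) to a genome named as GRCm38, assigned them to genes with featureCounts and deposited the raw counts of each library. The version and settings of featureCounts are not given in the sources used here. Positions in the table did not match GENCODE M21, so M21 positions were taken by Ensembl identifier. Libraries were grouped by the skeletal site in their titles.

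The counts were analysed with edgeR 4.0.16 in R 4.3.3, after filterByExpr (minimum count 10, minimum total 15), TMM normalization and a quasi-likelihood fit with a prior count of 0.125 and no covariates, with the femur as the baseline. Calls needed an adjusted p (Benjamini-Hochberg) under 0.05 and a difference of at least 2-fold. Intervals of count ratios are exact (95%). Levels per kilobase used the gene length of the table.

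The keratin members and all gene lists were chosen with earlier results of these data known. Named genes were all members and, in each list, the most abundant genes by mean CPM (up to 3) and the called genes with the largest log2 fold change (up to 3). Genes close in profile, Xist and Ddx3y were also named. Not every gene that the rule picks is reported here. Genes with shared or overlapping sequence, Itga6, Cdh1, Epcam, Esrp1, Cldn4, Cldn7, Grhl2 and markers at 0 were named after their values were seen. Alternatives were DESeq2 1.42.0, RLE size factors, no normalization factors, no filter, 10 counts in every library, a loess correction for gene length (span 0.4), a prior count of 2 and each library left out in turn. The transcript length used for levels per kilobase was an alternative chosen after the data were seen.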

Additional observations from a re-analysis of the deposited data

How the results depend on the processing

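The log2 fold change of Krt5 was 8.45 with a prior count of 2 and 11.22 with DESeq2, and 10.31 to 12.62 with a library left out. The upper end, without S18, and the fitted values of Krt14, Krt17 and Krt19 without S15 have no femur count behind them and are set by the prior count. The 3 sums and, in the mandible, the basal and simple shares, the Krt5 to Krt14 ratio and the type II to type I ratio moved by less than the spread between libraries under the alternatives tried. The other shares and ratios were not recomputed.

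Over all genes, 702 were called higher and 236 lower. DESeq2 called 1091 and 457, 157 were called lower without normalization factors and 571 without a filter, and with a library left out the counts were 376 to 957 and 58 to 608. With 10 counts in every library, 2 hemidesmosome genes, 1 desmosome gene, 1 cornified envelope gene, 0 junction genes and 1 non-keratin filament gene were called. DESeq2 called 3 desmosome genes, 1 cornified envelope gene, 2 transcription factors, 3 junction genes and 4 non-keratin filament genes. Without a filter, 3 desmosome genes, 1 cornified envelope gene, 1 transcription factor and 2 junction genes were called, and 1 desmosome gene with the length trend removed. With a library left out, 0 to 1 other keratins, 0 to 2 desmosome genes, 5 to 7 hemidesmosome genes, 0 to 1 transcription factors and 0 to 3 junction genes were called, and S15 gave the higher end of each (for junction genes S23 gave the lower). The sign of the log2 fold change turned for Klf5 (-0.14) and Krt83 (0.013) with the length trend removed, and with a library left out for Klf5 (-0.26 to 0.35), Krt83 (-0.98 to 0.89), Tgm1 (-1.07 to 0.10) and Lmnb1 (-0.059 to 0.49). The causes were not tested. No paired analysis was possible because the sources used here do not give the animal of each library. Members with counts near the limit of 3, such as Krt15 and Krt75, cannot be compared at this depth.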

Other observations

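Intermediate filament genes other than keratins gave a separate picture. Of 18 such genes, 13 passed the filter, and 2 were called higher in the mandible and 0 lower by edgeR's quasi-likelihood test. The share over all genes tested was 3.88% called higher and 1.30% called lower. Des (desmin), the filament protein of muscle, had 4, 36 and 7 counts in the femur libraries and 6962, 2993 and 7293 in the mandible libraries, with a log2 fold change of 8.66 ± 0.77 (SE). Synm (synemin), a partner of desmin and vimentin, had 28, 63 and 79 counts in the femur libraries and 932, 482 and 870 in the mandible libraries, with a log2 fold change of 3.90 ± 0.46 (SE). In both, every mandible library was above every femur library. Vim (vimentin), the filament protein of blood and mesenchymal cells, had 25948, 29108 and 47672 counts in the femur libraries and 49204, 54529 and 28319 in the mandible libraries, and its groups overlapped (log2 fold change 0.45 ± 0.36, SE). Lmnb1, a nuclear lamin, had a log2 fold change of 0.26 ± 0.36 (SE).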
